A study of Homo sapiens with 18 samples.

Results

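The comparison asked which genes of PC-3 cells answered a brief exposure to fluid shear stress differently at 24 h than at 12 h of suspension. PC-3 is an androgen-independent human prostate cancer line that grew out of a bone metastasis. For each gene the shear effect at a time is the log2 ratio of sheared to static cells, and the quantity reported here is the shear effect at 24 h minus the shear effect at 12 h. It uses 12 of the 18 libraries of the series, in 4 groups of 3 replicates. The groups are PC-3 cells sheared and then held in suspension for 24 h, static PC-3 cells held for 24 h, PC-3 cells sheared and held for 12 h, and static PC-3 cells held for 12 h. All 12 cultures were unmodified PC-3 cells that had been detached and kept from attaching in poly-HEMA coated wells, so the static cells are detached cells too. Shear was applied by pushing the suspension through a fine syringe needle at a set flow rate. The sheared and the static library of one replicate at one time came from a common pool of cells, whereas the pools of different times were independent, which gives 6 pools. The 12 libraries carry one batch date, and the 3 h libraries, with another date, entered only an alternative fit. The RNA was that of the cytosol, and 1 cell line in plastic wells is the whole of the model, without blood, flow or other cells.

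Tumour cells that detach and circulate meet fluid shear and lose their anchorage at once. Dividing cells switch on a set of G2/M genes, among them the kinase CDK1, kinesins and the kinetochore and spindle proteins that separate chromosomes. The promoters of many of these genes carry a short element called CHR, which the MuvB complex binds, and often a CCAAT box, which NF-Y binds. Interferon-stimulated genes form another coordinated set, driven through the ISRE promoter element, and cells can run it at a low level without added interferon. Secreted gel-forming mucins and stratified keratins mark differentiation states of epithelia.

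The 12 libraries held between 16400487 and 21976621 counts, and 14759 of the 28395 genes in the table passed the filter on low counts. Transcripts of the PC-3 epithelial markers were abundant in every library (KRT8 between 792 and 2059 CPM, KRT18 between 583 and 1116 CPM, CPM being counts scaled to the library total). The list of 13 markers of androgen-dependent prostate cells was mixed: KLK2 was at 0 in all 12 libraries and KLK3 at no more than 0.0603 CPM, while SLC45A3 stood at 132 to 264 CPM, HOXB13 at 49.1 to 303 CPM and TMPRSS2 at 34.5 to 82.9 CPM. Its summed level was 307 to 475 CPM in sheared and 595 to 675 CPM in static cells at 24 h, and 325 to 410 CPM in sheared and 504 to 609 CPM in static cells at 12 h, and its part in the results was not tested. The haematopoietic marker list of 12 genes included AIF1 at 0 in all libraries and PTPRC at no more than 0.329 CPM, and CD68, at up to 105 CPM, made up most of its sum. One library stood apart: replicate 3 of the sheared cells at 24 h had the lowest TMM scaling factor (0.76), the fewest genes detected (17007) and the largest share of its counts in its 100 most abundant genes (28.2%). In it the nuclear-retained RNA MALAT1 stood at 64.9 CPM (TMM-scaled), against 29.0 and 6.97 CPM in the other sheared 24 h libraries and 24.2, 13.1 and 10.3 CPM in the static 24 h libraries. Results are therefore also given without this pool.

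Of the 14759 genes tested, 12 (0.0813%) differed in their shear effect between 24 h and 12 h at an adjusted p below 0.05 in edgeR's quasi-likelihood test with Benjamini-Hochberg adjustment. The shear effect was higher at 24 h for 10 of them (0.0678% of genes tested) and lower for 2 (0.0136%). At an unadjusted p below 0.05, 850 genes passed (5.76%), 502 (3.4%) of them higher and 348 (2.36%) lower. In 3 genes (CDK1, UBE2C and KRT4) shear raised expression at both times and the effect grew. In 7 genes (SKA1, KIF14, ASPM, NUF2, CDCA8, FAM72A and FAM72B) an increase passed the threshold only at 24 h. The effect of shear on TRIM29 passed the threshold at 12 h only and is called faded, and that on MUC2 reversed its sign. No gene weakened while remaining past the threshold at both times. In each of the 12 genes the 3 pool differences of 24 h all lay on one side of the 3 of 12 h, which was so for 1605 genes (10.9%) among all tested. All 12 differences kept their sign in every alternative. Without 12 h replicate 1 or 2 none of the 12 was called, and without 12 h replicate 3 only MUC2 was. The estimate for CDK1 was 1.62, 1.54 and 1.52 without 12 h replicates 1, 2 and 3, against 1.56 with all pools. Why the calls were lost was not tested. Without 24 h replicate 1, 7 of the 12 were called, and without 24 h replicate 2 or 3 all 12 were. In the plot of the 2 shear effects against each other the 12 genes fall into an upper group and a right-hand pair.

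**Figure D1:**
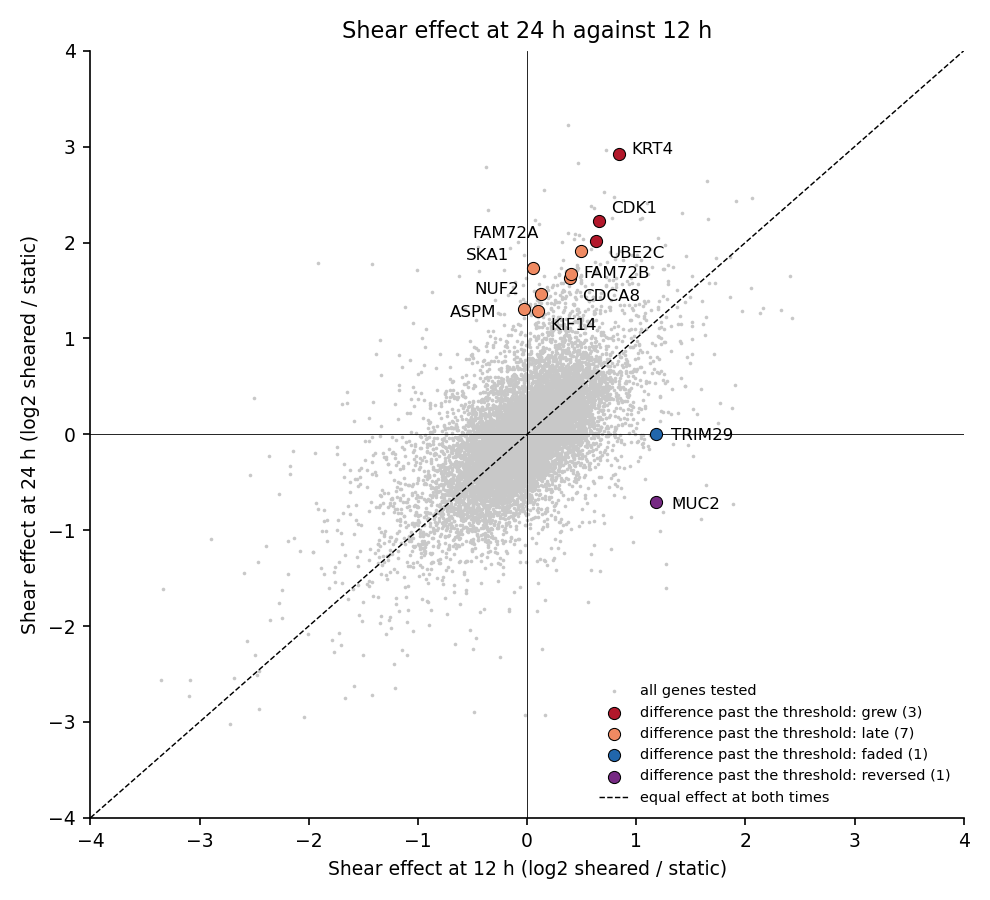
Shear effect at 24 h (vertical axis, log2 sheared over static) against shear effect at 12 h (horizontal axis, same unit) for each gene tested, with the 12 genes whose difference passed the threshold coloured by pattern and the dashed line marking equal effects; 2 genes lie outside the axes of 4. KRT4, at 2.93 on the vertical and 0.84 on the horizontal axis, is the highest of the named genes, while TRIM29 and MUC2 lie to the right, at 1.18 and 1.19 on the horizontal axis.

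Each time was also tested against its own static cells. Shear was followed at 24 h by 925 increases (6.27% of genes tested) and 710 decreases (4.81%), and at 12 h by 433 increases (2.93%) and 368 decreases (2.49%). With library totals in place of TMM factors the split moved to 535 higher and 1340 lower at 24 h and to 188 higher and 635 lower at 12 h, with medians over all genes of -0.19 at 24 h and -0.16 at 12 h on the log2 scale in place of -0.02 at each; the difference between times gave 7 higher and 3 lower, with a median of -0.02. Of the 1635 genes called at 24 h (11.1%) and the 801 called at 12 h (5.43%), 464 were called at both, which is 28.4% of the 24 h list and 57.9% of the 12 h list, and 463 of these had the same sign. MUC2 was the exception. Among the 1171 genes called at 24 h but not at 12 h, 7 passed the test of the difference itself, and 388 had an unadjusted p below 0.05 in edgeR. Among the 337 called at 12 h but not at 24 h, these counts were 1 and 85. Of all genes tested, 0.0813% were called in the difference and 5.76% passed at the unadjusted level. These genes were selected on the same values, so the counts describe them. A gene found at one time only was rarely one whose difference passed the adjusted threshold.

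For the G2/M genes that carry the late response, the promoter sequences are shown because the letters of the CHR are shared by most of them. Promoters were taken from RefSeq (GRCh38.p14) as 250 bases before to 50 bases after the annotated start, written from 5′ to 3′ on the gene's strand, and 11637 of the tested genes had one in the table. The CHR was searched as TTTGAA or TTCGAA on both strands, so that it can also appear as TTCAAA, and its letters are in capitals. Positions are counted from the start base as 0. The 4 promoters below belong to genes past the threshold: CDK1 at chr10:60778081-60778380 on the plus strand with the CHR at -161, ASPM at chr1:197146620-197146919 on the minus strand with it at -113, CDCA8 at chr1:37692266-37692565 on the plus strand with it at -23, and KIF14 at chr1:200620702-200621001 on the minus strand with it at 1.
CDK1: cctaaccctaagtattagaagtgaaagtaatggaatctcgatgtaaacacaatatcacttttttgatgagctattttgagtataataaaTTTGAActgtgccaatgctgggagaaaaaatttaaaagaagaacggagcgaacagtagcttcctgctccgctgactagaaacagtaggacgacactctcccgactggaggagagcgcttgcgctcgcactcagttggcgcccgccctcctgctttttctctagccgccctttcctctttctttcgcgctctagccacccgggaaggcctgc
ASPM: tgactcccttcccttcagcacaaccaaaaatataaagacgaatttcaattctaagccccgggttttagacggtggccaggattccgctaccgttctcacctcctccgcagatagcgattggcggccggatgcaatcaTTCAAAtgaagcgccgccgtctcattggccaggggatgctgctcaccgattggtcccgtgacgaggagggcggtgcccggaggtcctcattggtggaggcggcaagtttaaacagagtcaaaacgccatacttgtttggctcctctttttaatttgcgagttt
CDCA8: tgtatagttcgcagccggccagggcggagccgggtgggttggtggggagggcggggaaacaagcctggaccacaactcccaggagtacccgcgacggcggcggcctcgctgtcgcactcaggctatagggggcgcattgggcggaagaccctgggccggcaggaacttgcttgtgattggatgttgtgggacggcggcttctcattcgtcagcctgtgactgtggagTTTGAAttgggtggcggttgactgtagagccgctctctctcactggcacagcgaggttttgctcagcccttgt
KIF14: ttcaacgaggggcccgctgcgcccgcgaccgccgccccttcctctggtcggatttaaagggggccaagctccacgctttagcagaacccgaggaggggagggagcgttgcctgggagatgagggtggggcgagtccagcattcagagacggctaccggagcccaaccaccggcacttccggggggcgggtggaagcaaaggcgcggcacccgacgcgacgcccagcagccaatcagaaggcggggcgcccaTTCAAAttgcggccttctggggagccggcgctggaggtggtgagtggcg
Of the 32 G2/M promoters in the table, 24 (75%) held a CHR, against 11.1% of the promoters of all genes tested, and 26 (81.2%) held a CCAAT box, searched as CCAAT on both strands, against 36.4%. SKA1 and NUF2 also had a CHR, at 34 and 16, while CCNB1, KRT4 and MUC2 had none in this window. Among 30 promoters of G1/S genes, 2 (6.67%) held one. A match of letters describes the sequence and is not a measured binding site.

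CDK1, the cyclin-dependent kinase that starts mitosis, had 105, 187 and 593 CPM (TMM-scaled, as for all genes below) in sheared cells at 24 h and 34.1, 42.5 and 80.9 CPM in static cells at 24 h. At 12 h it had 287, 268 and 220 CPM in sheared cells and 165, 177 and 147 CPM in static cells. Sheared cells were above static cells without overlap at both times. The static cells of 24 h had the lowest levels of the 4 groups. The shear effect on CDK1 was 2.22 at 24 h and 0.66 at 12 h, a difference of 1.56 ± 0.26 on the log2 scale (SE; adjusted p = 0.0386, edgeR). UBE2C, the ubiquitin-conjugating enzyme that serves the anaphase-promoting complex, had 94.1, 151 and 397 CPM in sheared and 29.9, 32.3 and 89.7 CPM in static cells at 24 h. At 12 h its levels were 173, 193 and 170 CPM in sheared and 113, 113 and 120 CPM in static cells. All 3 pools of 24 h showed an increase of UBE2C larger than any pool of 12 h, with log2 ratios of 1.65, 2.22 and 2.14 against 0.62, 0.78 and 0.50. The difference was 1.38 ± 0.20 (SE; adjusted p = 0.0244, edgeR).

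Among the genes of the late pattern, KIF14, SKA1, NUF2 and ASPM had overlapping sheared and static levels at 12 h and parted within each pool at 24 h. CDCA8, FAM72A and FAM72B were already higher in sheared cells in each pool of 12 h. Their shear effects at 12 h, 0.39, 0.49 and 0.40, did not pass the threshold. KIF14, a kinesin needed for cytokinesis, had 68.1, 22.8 and 67.4 CPM in sheared and 27.7, 10.9 and 24.5 CPM in static cells at 24 h, and 119, 102 and 77.2 CPM in sheared and 97.5, 108 and 72.2 CPM in static cells at 12 h. Its shear effect was 1.28 at 24 h and 0.10 at 12 h (difference 1.18 ± 0.20, SE; adjusted p = 0.0386, edgeR). Replicate 2 had the lowest KIF14 level of both 24 h groups, yet the ratio within that pool, 1.05 on the log2 scale, was of the size of the other pools. SKA1, a subunit of the complex that couples kinetochores to microtubule ends, had 8.10, 11.9 and 15.1 CPM in sheared and 2.57, 3.20 and 4.83 CPM in static cells at 24 h, and 17.3, 13.1 and 15.6 CPM in sheared and 14.9, 14 and 15 CPM in static cells at 12 h. Its difference, 1.67 ± 0.27 (SE; adjusted p = 0.0386, edgeR), was the largest of the late genes. NUF2, a subunit of the NDC80 kinetochore complex, had 28.9, 27.4 and 79.3 CPM in sheared and 13.4, 10.5 and 22.0 CPM in static cells at 24 h, with overlapping groups at 12 h (58.5, 48.9 and 45.4 CPM in sheared, 50.3, 48.8 and 40.2 CPM in static cells). The NUF2 difference was 1.33 ± 0.22 (SE; adjusted p = 0.0386, edgeR).

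ASPM, which organises the spindle poles, had 25.9, 13.7 and 33.0 CPM in sheared and 10.6, 6.79 and 10.9 CPM in static cells at 24 h, and 48.5, 39.0 and 29.3 CPM in sheared and 41.6, 47.3 and 29.6 CPM in static cells at 12 h. The groups overlapped at 12 h and not at 24 h, and the difference was 1.33 ± 0.24 (SE; adjusted p = 0.0428, edgeR). CDCA8, the borealin subunit of the chromosomal passenger complex, had 40.7, 46.1 and 87.7 CPM in sheared and 16.6, 15.4 and 22.0 CPM in static cells at 24 h, and 77.4, 73.8 and 68.4 CPM in sheared and 57.3, 52.4 and 57.6 CPM in static cells at 12 h. Its groups were apart at both times, but the effect at 12 h, 0.39, had an adjusted p of 0.14 in edgeR, and the difference was 1.24 ± 0.21 (SE; adjusted p = 0.0428). FAM72A and FAM72B, with differences of 1.42 and 1.27, are near-identical copies of FAM72C (1.39, adjusted p = 0.0863, edgeR) and FAM72D (1.42, adjusted p = 0.101, edgeR). The values of these 4 copies are uncertain, since the counting could divide shared reads among them. FAM72C and FAM72D were singled out after their values were seen.

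**Figure D2:**
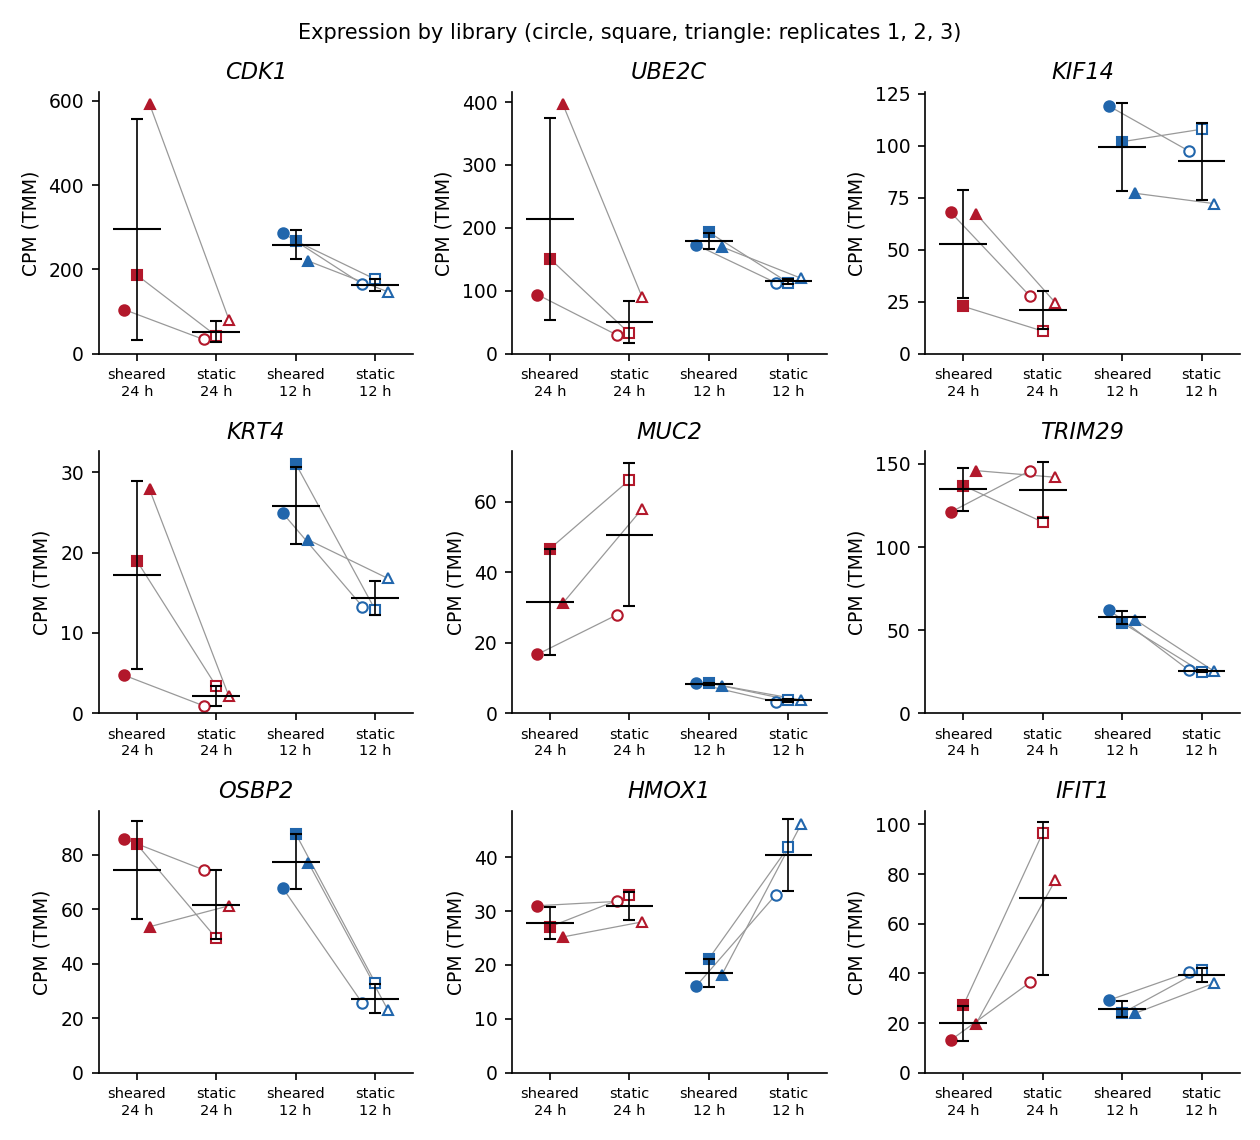
CPM (TMM-scaled) of 9 genes in each of the 12 libraries, grouped as sheared 24 h, static 24 h, sheared 12 h and static 12 h, with lines joining the 2 libraries of one pool and bars giving the mean and SD of 3 replicates. CDK1, UBE2C and KIF14 are lowest in static cells at 24 h (CDK1 34.1 to 80.9 CPM), MUC2 lies below its static partner in each 24 h pool and above it in each 12 h pool, and TRIM29 is level at 24 h between 115 and 146 CPM.

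The whole list of 38 G2/M genes, which was chosen with earlier results of these data known, showed the same direction. All 38 were called higher in sheared cells at 24 h and 6 at 12 h, against 6.27% and 2.93% of all genes. The difference between times was positive for all 38 and called for 4 (CDK1, UBE2C, NUF2 and KIF14), with 37 at an unadjusted p below 0.05, against 3.4% of all genes. Its median was 1.08 on the log2 scale, against 0.00 over all genes tested, and it ran between 0.35 and 1.56. In 37 of the 38 genes all 3 pools of 24 h lay above all 3 of 12 h, which 5.69% of all genes did. The median ratio over the list within a pool was 1.09, 1.09 and 1.69 in the pools of 24 h and 0.43, 0.27 and 0.23 in the pools of 12 h. As summed CPM of library totals, the list took 2365, 2362 and 4865 in sheared and 1215, 1111 and 1671 in static cells at 24 h, and 4865, 4583 and 4308 in sheared and 4097, 4313 and 3695 in static cells at 12 h. Replicates 1 and 2 of the sheared cells at 24 h thus held less of this RNA than any library of 12 h, and the static libraries of 24 h held the least. Replicate 3 of the sheared cells at 24 h, the library that stood apart, had the highest sum of its group. Without that pool the median difference of the list was 0.80 and 8 of its genes were called, and none was called without 12 h replicate 1, 2 or 3. In bulk RNA, more dividing cells and more mitotic RNA per dividing cell cannot be told apart.

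Other mitotic genes lay just outside the threshold. CENPF and AURKB, of the G2/M list, and MKI67, outside it, were singled out after their values were seen. CENPF, a kinetochore protein, had 54.9, 54.6 and 96.7 CPM in sheared and 26.4, 35.2 and 45.2 CPM in static cells at 24 h, against 126, 111 and 74.2 CPM in sheared and 117, 143 and 92.2 CPM in static cells at 12 h. In CENPF the estimate at 12 h was below 0 (-0.19) and that at 24 h was 0.93, and the difference of 1.12 had an adjusted p of 0.0528 in edgeR. MKI67, the gene of the Ki-67 proliferation antigen, gave a difference of 1.24 (adjusted p = 0.0658, edgeR), and AURKB, the passenger complex kinase, one of 1.34 (adjusted p = 0.055, edgeR). CCNB1, the cyclin partner of CDK1, gave a smaller one of 0.87 (adjusted p = 0.0853, edgeR), with 103, 108 and 223 CPM in sheared and 52.6, 59.5 and 85.9 CPM in static cells at 24 h.

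Genes of the preceding phases of the cycle were less uniform. PRIM1, RRM2 and FANCI were singled out after their values were seen. Of 34 G1/S and DNA replication genes, 21 were called higher in sheared cells at 24 h and 2 at 12 h, against 6.27% and 2.93% of all genes. The difference was called for 0 (14 higher at an unadjusted p below 0.05 in edgeR, against 3.4% of all genes). Its median was 0.64 (1.11 without 24 h replicate 1 and 0.33 without 24 h replicate 2). The pools of 24 h were uneven, with list medians of 0.17, 1.56 and 1.08, against 0.36, 0.32 and 0.43 in the pools of 12 h, so replicate 1 of 24 h lay below the pools of 12 h. PRIM1, the small primase subunit, was uneven too, with 3.75, 19.8 and 17.0 CPM in sheared and 2.22, 4.26 and 4.29 CPM in static cells at 24 h. Its log2 ratios were 0.73, 2.18 and 1.96 in the pools of 24 h and 0.62, 0.20 and 0.54 in the pools of 12 h. For PRIM1, then, replicate 1 of 24 h was the lowest of its time but lay above the pools of 12 h. RRM2, the ribonucleotide reductase subunit that limits deoxynucleotide supply, had 96.9, 156 and 489 CPM in sheared and 36.1, 29.7 and 64.0 CPM in static cells at 24 h, against 314, 265 and 243 CPM in sheared and 173, 143 and 160 CPM in static cells at 12 h. Its difference of 1.48 ± 0.30 (SE) had an adjusted p of 0.0918 in edgeR, and TYMS, thymidylate synthase, had one of 1.03 ± 0.25 (adjusted p = 0.136). Of 19 genes of homologous recombination and Fanconi repair, 16 were called higher in sheared cells at 24 h and 1 at 12 h, against 6.27% and 2.93% of all genes. The difference of this list had a median of 0.91 with 0 called and 14 higher at an unadjusted p below 0.05 in edgeR, against 3.4% of all genes. FANCI, a subunit of the complex that marks crosslinked DNA, had 15.4, 29.2 and 31.9 CPM in sheared and 10.9, 8.75 and 10.4 CPM in static cells at 24 h, while its groups overlapped at 12 h (38.6, 33.4 and 36.2 CPM in sheared, 36.0, 35.3 and 34.8 CPM in static cells).

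KRT4, a type II keratin of non-cornified stratified epithelia, was the gene outside the cell cycle whose increase grew. It had 4.74, 19.0 and 27.9 CPM in sheared and 0.936, 3.37 and 2.10 CPM in static cells at 24 h, and 24.9, 31.1 and 21.6 CPM in sheared and 13.3, 12.9 and 16.8 CPM in static cells at 12 h. The groups were apart at both times. The shear effect was 2.93 at 24 h and 0.84 at 12 h, and the difference, 2.08 ± 0.36 (SE; adjusted p = 0.0428, edgeR), was the largest in size of the 12. The epithelial gene list as a whole did not share it: of its 31 tested genes 0 were called in the difference (0 in either direction at an unadjusted p below 0.05 in edgeR as well), and the median was 0.04.

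**Figure D3:**
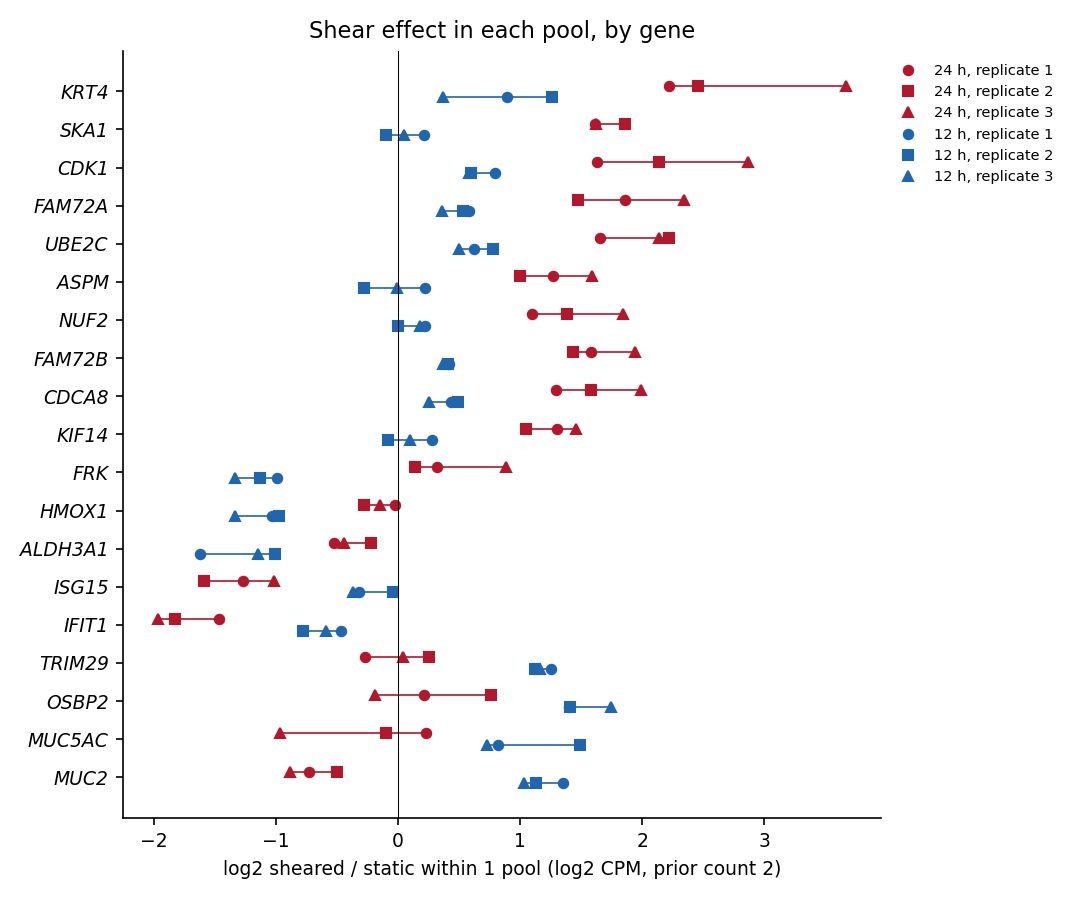
Log2 ratio of sheared to static CPM within each pool (horizontal axis, prior count of 2) for 19 genes, red for the 3 pools of 24 h and blue for the 3 of 12 h, each with a line over its range. The 3 red points of each gene lie on one side of its 3 blue points, on the right for the 10 genes from KRT4 to KIF14 and for FRK, HMOX1 and ALDH3A1, and on the left for ISG15, IFIT1, TRIM29, OSBP2, MUC5AC and MUC2.

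MUC2, a secreted gel-forming mucin of the intestine, was the gene whose response reversed. It had 16.7, 46.7 and 31.2 CPM in sheared and 27.9, 66.2 and 58.0 CPM in static cells at 24 h, and 8.47, 8.56 and 7.84 CPM in sheared and 3.26, 3.86 and 3.79 CPM in static cells at 12 h. In every pool of 24 h the sheared library lay below its static partner, and in every pool of 12 h above it. Across pools the levels of the 2 groups overlapped at 24 h, so that this direction rests on the pairing within pools. MUC2 fell by 0.71 on the log2 scale at 24 h (adjusted p = 0.00822) and rose by 1.19 at 12 h (adjusted p = 0.0014, edgeR for both). The difference was -1.90 ± 0.24 (SE; adjusted p = 0.00768, edgeR), the smallest p of all genes. MUC5AC, the gel-forming mucin of the airway and stomach and, like MUC2, on chromosome 11, was singled out after its values were seen. It had 76.1, 77.8 and 59.6 CPM in sheared and 65.0, 83.3 and 117 CPM in static cells at 24 h, and 23.7, 45.3 and 40.2 CPM in sheared and 13.4, 16 and 24.2 CPM in static cells at 12 h. Its increase at 12 h, 1.02, had an adjusted p of 0.0162, and its difference, -1.30 ± 0.30 (SE), one of 0.12 (edgeR for both).

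TRIM29, a tripartite-motif protein of basal and squamous epithelia, had 121, 137 and 146 CPM in sheared and 146, 115 and 142 CPM in static cells at 24 h, and 62.0, 54.5 and 56.4 CPM in sheared and 25.9, 25.0 and 25.2 CPM in static cells at 12 h. Sheared and static cells overlapped at 24 h and were far apart at 12 h. The shear effect was 0.01 at 24 h (95% confidence interval -0.28 to 0.29) and 1.18 at 12 h, with a difference of -1.18 ± 0.19 (SE; adjusted p = 0.0386, edgeR). The static level of TRIM29 was higher at 24 h than at 12 h in every library, a comparison of different pools that was not tested here. The same order of levels held for MUC2 and MUC5AC: for each of them the static libraries of 24 h were all above the sheared libraries of 12 h.

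A wider set was formed after the values were seen, from the genes past the threshold both in DESeq2's Wald test (103 genes, 0.698%) and in edgeR's test with all 18 libraries (101 genes, 0.665%). It held 91 genes, the 12 among them, with adjusted p-values between 0.00768 and 0.157 in edgeR's test of the 12 libraries. The shear effect was higher at 24 h for 81 and lower for 10. By the calls at each time, 72 were late increases, 6 growing increases, 5 increases at 12 h that faded, 3 decreases at 12 h that faded, 3 late decreases, 1 growing decrease and 1 reversal. Of the 81, 26 belonged to the 3 cell-cycle and repair lists, which hold 38, 34 and 19 of the 14759 genes tested. Of the 10, 2 were in the interferon-stimulated list, which holds 37 of the genes tested. The lists are not complete: mitotic genes of the set such as SKA1, ASPM and CDCA8 are in none of them. In all 91 the pools of the 2 times did not overlap, against 10.9% of all genes tested. These genes were chosen for their difference in these same libraries. This count and the values that follow therefore describe them and are no separate support.

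The increases called at 12 h only, and so sorted as faded in this set, were TRIM29, OSBP2, MUC5AC, SPHK1 and ST6GALNAC4. OSBP2, an oxysterol-binding protein relative, had 85.9, 83.9 and 53.6 CPM in sheared and 74.5, 49.4 and 61.3 CPM in static cells at 24 h, and 67.7, 87.8 and 77.1 CPM in sheared and 25.5, 33.1 and 23.1 CPM in static cells at 12 h. The OSBP2 groups overlapped at 24 h and were apart at 12 h, with shear effects of 0.26 at 24 h and 1.52 at 12 h. ST6GALNAC4, a sialyltransferase, had 23.0, 30.9 and 26.3 CPM in sheared and 21.3, 30.2 and 27.0 CPM in static cells at 24 h, against 19.2, 30.3 and 28.7 CPM in sheared and 10.4, 14.1 and 15.2 CPM in static cells at 12 h. SPHK1, which makes sphingosine-1-phosphate, had a shear effect of -0.44 at 24 h and of 0.66 at 12 h. Its sheared libraries lay below their static partners in each pool of 24 h and above them in each pool of 12 h. The SPHK1 effect at 24 h had an adjusted p of 0.13 in edgeR.

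The decreases called at 12 h only, and so sorted as faded, were FRK, HMOX1 and ALDH3A1. HMOX1, the inducible haem oxygenase, had 31.0, 27.1 and 25.2 CPM in sheared and 31.8, 32.9 and 28.0 CPM in static cells at 24 h, and 16.1, 21.2 and 18.1 CPM in sheared and 33.0, 41.9 and 46.1 CPM in static cells at 12 h. The HMOX1 shear effect was -0.16 at 24 h and -1.12 at 12 h, and the sheared libraries of 12 h had the lowest levels of the 12 libraries. ALDH3A1, an aldehyde dehydrogenase, had 53.9, 99.9 and 63.4 CPM in sheared and 77.7, 116 and 85.8 CPM in static cells at 24 h, and 17.2, 21.5 and 27.6 CPM in sheared and 53.2, 43.3 and 61.2 CPM in static cells at 12 h. Its shear effect was -0.39 at 24 h and -1.26 at 12 h. FRK, a SRC-related kinase with few counts, had 5.66, 3.78 and 5.83 CPM in sheared and 4.5, 3.42 and 3.12 CPM in static cells at 24 h, and 4.21, 3.48 and 2.58 CPM in sheared and 8.48, 7.72 and 6.69 CPM in static cells at 12 h. The FRK shear effect was 0.46 at 24 h, positive in each pool but not called, and -1.17 at 12 h, negative in each pool. AKR1B10, an aldo-keto reductase outside the wider set, had shear effects of -0.54 at 24 h and -1.55 at 12 h (difference 1.02 ± 0.25, SE; adjusted p = 0.153, edgeR). HMOX1 and AKR1B10 are known NRF2 targets, but the list of 25 NRF2 targets had a median difference of 0.11 and 0 called. At an unadjusted p below 0.05 in edgeR, 3 of the list were higher and 2 lower, against 3.4% and 2.36% of all genes. Most of the list thus did not share the pattern of HMOX1 and AKR1B10.

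Interferon-stimulated genes were lower in sheared cells at both times, with larger estimates at 24 h. Of 37 tested, 33 were called lower at 24 h and 18 at 12 h, against 4.81% and 2.49% of all genes, and none was called higher at either time. The difference had a median of -0.57 (-0.34 without 24 h replicate 2) and was negative for all but 2, but 0 were called in edgeR, with 15 at an unadjusted p below 0.05 (background 2.36%) and 2 called in DESeq2. In 13 of the 37 all 3 pools of 24 h lay below all 3 of 12 h, which 5.18% of all genes did. The list medians were -1.06, -1.50 and -1.02 in the pools of 24 h and -0.50, -0.93 and -0.60 in the pools of 12 h. As summed CPM of library totals, the list took 1046, 1401 and 1611 in sheared and 2171, 3821 and 3481 in static cells at 24 h, and 957, 917 and 983 in sheared and 1446, 1547 and 1417 in static cells at 12 h. The static cells of 24 h had the highest sums in all pools, and the sheared cells of 24 h overlapped the static cells of 12 h.

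IFIT1 and ISG15, singled out after their values were seen, had the smallest p-values of this list. IFIT1, which binds foreign RNA ends, had 13.1, 27.1 and 19.7 CPM in sheared and 36.4, 96.6 and 77.6 CPM in static cells at 24 h, and 29.3, 24.0 and 23.9 CPM in sheared and 40.5, 41.4 and 36.1 CPM in static cells at 12 h. It fell at both times, with shear effects of -1.77 at 24 h and -0.62 at 12 h, and the difference of -1.15 ± 0.21 (SE) had an adjusted p of 0.0531 in edgeR. ISG15, a ubiquitin-like modifier, had 148, 270 and 321 CPM in sheared and 357, 814 and 652 CPM in static cells at 24 h, and 134, 160 and 151 CPM in sheared and 168, 164 and 196 CPM in static cells at 12 h. The ISG15 groups lay close together at 12 h (-0.24; adjusted p = 0.333) and apart at 24 h (-1.29; adjusted p = 5.09e-05), with a difference of -1.05 ± 0.20 (SE; adjusted p = 0.0531, edgeR for all 3). MX2, an antiviral GTPase, had the lowest difference of the list at -1.30 ± 0.37 (adjusted p = 0.29, edgeR), and OAS2, an oligoadenylate synthetase, lay at -0.62 ± 0.23. OAS1, singled out after its values were seen, had a positive estimate at 12 h (0.16, adjusted p = 0.576). It fell by 0.64 at 24 h (adjusted p = 0.0122, edgeR for both). The promoters of ISG15 (chr1:1013247-1013546) and IFIT1 (chr10:89392373-89392672), both on the plus strand, are shown for the ISRE core, searched on both strands as GAAA, any 2 bases and GAAA again, and given in capitals. In ISG15 a match at -113 and one at -107 overlap, and IFIT1 has matches at -116 and -103 on the opposite strand.
ISG15: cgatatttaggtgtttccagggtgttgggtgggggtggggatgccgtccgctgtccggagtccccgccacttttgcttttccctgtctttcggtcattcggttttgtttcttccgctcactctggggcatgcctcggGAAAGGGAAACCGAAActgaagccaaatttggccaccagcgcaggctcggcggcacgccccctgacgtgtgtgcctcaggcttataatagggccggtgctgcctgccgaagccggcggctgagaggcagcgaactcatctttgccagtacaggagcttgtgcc
IFIT1: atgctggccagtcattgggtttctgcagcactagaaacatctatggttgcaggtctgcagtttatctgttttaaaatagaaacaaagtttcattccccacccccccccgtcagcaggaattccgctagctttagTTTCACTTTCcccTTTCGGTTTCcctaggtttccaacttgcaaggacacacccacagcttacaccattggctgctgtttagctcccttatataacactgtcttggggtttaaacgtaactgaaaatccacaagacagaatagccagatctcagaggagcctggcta
The core was found in 19 of 30 promoters of the list (63.3%), against 2.84% of the promoters of genes tested.

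The other late decreases of the wider set were those of FJX1 and TFRC. TFRC, the transferrin receptor, had 222, 184 and 148 CPM in sheared and 311, 260 and 246 CPM in static cells at 24 h, and 219, 192 and 240 CPM in sheared and 203, 186 and 168 CPM in static cells at 12 h. It lay lower in sheared cells in each pool of 24 h and higher in each pool of 12 h, but the effect at 12 h (0.22) had an adjusted p of 0.361, and the difference of -0.79 ± 0.19 (SE) one of 0.136 (edgeR for both). FJX1 had 13.5, 21.0 and 4.15 CPM in sheared and 24.4, 41.2 and 12.8 CPM in static cells at 24 h, against 11.6, 14.8 and 30.5 CPM in sheared and 12.9, 13.2 and 16.8 CPM in static cells at 12 h.

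Many responses had estimates of like size at both times, and the interval of the difference gives how far they could differ. Cytosolic ribosomal protein genes were called higher in sheared cells for 43 of 58 at 24 h and 45 of 58 at 12 h, against 6.27% and 2.93% of all genes. Their median shear effects were 0.54 at 24 h and 0.55 at 12 h. Their difference had a median of -0.01 and 0 called (0 higher and 1 lower at an unadjusted p below 0.05 in edgeR). Its 95% confidence interval lay inside -1 to 1 for 57 of 58. Those bounds are wider than the median effects, so an interval inside them does not by itself show effects of like size. The share of all genes with such an interval is not given. RPSA, a protein of the small subunit, had 3862, 3080 and 3462 CPM in sheared and 2342, 2187 and 2125 CPM in static cells at 24 h, and 4549, 3982 and 3667 CPM in sheared and 2767, 2563 and 2688 CPM in static cells at 12 h. The RPSA difference was 0.04 (95% confidence interval -0.36 to 0.44). FTH1, the ferritin heavy chain, had shear effects of 0.60 at 24 h and 0.63 at 12 h (difference -0.03, interval -0.45 to 0.38), and CAV1, the coat protein of caveolae, of 1.29 at 24 h and 0.97 at 12 h (difference 0.32, interval -0.06 to 0.70). The CAV1 ratios in the pools of 24 h (1.22, 1.44 and 1.22) all lay above those of 12 h (0.95, 0.93 and 1.04), as in 5.69% of all genes.

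Sterol and fatty acid genes, which SREBP factors control, were lower at both times. Of 25 genes of cholesterol synthesis and uptake, 18 were called lower in sheared cells at 24 h and 14 at 12 h, and of 17 fatty acid synthesis genes 8 were at each time. Among all genes, 4.81% were called lower at 24 h and 2.49% at 12 h. The median shear effects at 24 h and 12 h were -0.60 and -0.56 in the sterol list and -0.57 and -0.48 in the fatty acid list. Bounds of -1 to 1 on a difference are wider than these effects too. The differences between times had medians of -0.05 in the sterol list and -0.10 in the fatty acid list, with 0 called in either list (2 lower and 0 higher in the sterol list and 0 in the fatty acid list at an unadjusted p below 0.05 in edgeR), and intervals inside -1 to 1 for 22 of 25 and 16 of 17. FADS2, the delta-6 desaturase, had 786, 926 and 637 CPM in sheared and 1762, 2224 and 1474 CPM in static cells at 24 h, and 500, 563 and 405 CPM in sheared and 945, 991 and 1102 CPM in static cells at 12 h. Its difference was -0.15 (95% confidence interval -0.59 to 0.28). SQLE, squalene epoxidase, fell by 0.64 at 24 h (adjusted p = 0.00961) and by 0.87 at 12 h (adjusted p = 0.00312, edgeR for both), a difference of 0.23 with an interval of -0.20 to 0.66.

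Several other genes, named in any case, responded at both times, and none of their differences was called. TCN1, a vitamin B12 binder, had 39.2, 60.4 and 71.5 CPM in sheared and 211, 282 and 157 CPM in static cells at 24 h, and 35.3, 27.7 and 19.6 CPM in sheared and 151, 154 and 111 CPM in static cells at 12 h, and the difference was 0.43 (95% confidence interval -0.19 to 1.04). PADI2 and PADI3 convert arginine residues of proteins to citrulline. PADI2 fell by 1.12 at 24 h and by 1.83 at 12 h, with a difference of 0.72 (interval 0.17 to 1.26; adjusted p = 0.606, edgeR), and PADI3, which had few counts, gave a difference of 0.52 (interval -0.61 to 1.66). AQP3, a water and glycerol channel, rose at both times, by 1.28 at 24 h and 1.97 at 12 h, and its difference of -0.69 (interval -1.29 to -0.10) had an adjusted p of 0.728 in edgeR. ST6GAL2, a sialyltransferase, had 22.4, 24.2 and 34.2 CPM in sheared and 13, 13.5 and 18.6 CPM in static cells at 24 h, and 21.9, 27.5 and 27.8 CPM in sheared and 8.04, 8.11 and 7.30 CPM in static cells at 12 h. ST6GAL2 was apart at both times, the ratio was smaller in each 24 h pool than in each 12 h pool, and the difference of -0.88 ± 0.23 (SE) had an adjusted p of 0.215 in edgeR. SLC7A8 and SLC7A11, which encode amino acid transporters, gave differences of -0.01 (interval -0.79 to 0.76) and 0.55 (interval 0.03 to 1.06; adjusted p = 0.816, edgeR), and OXTR, the oxytocin receptor, -0.38 (interval -1.10 to 0.33).

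**Figure D4:**
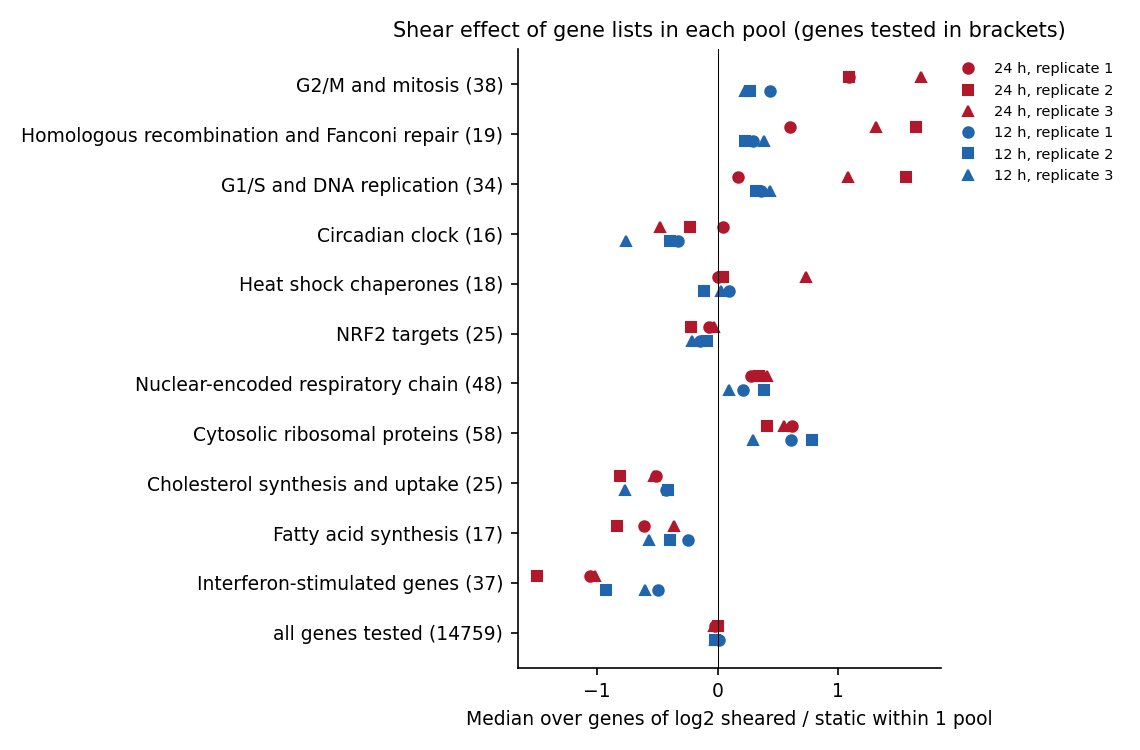
Median over the genes of a list of the log2 ratio of sheared to static cells within 1 pool (horizontal axis), for 11 lists and all genes tested, with red symbols for the pools of 24 h and blue for those of 12 h. The G2/M list is at 1.09, 1.09 and 1.69 in red and 0.23 to 0.43 in blue, the red G1/S points spread between 0.17 and 1.56, the interferon-stimulated list is lowest in red, and ribosomal protein and sterol lists have interleaved colours.

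None of the 39 lists other than G2/M had a gene past the threshold of the difference. The circadian clock list of 16 genes had a median difference of 0.46. Shear effects were called lower for 0 of them at 24 h and 4 at 12 h, against 4.81% and 2.49% of all genes. The difference was higher for 2 at an unadjusted p below 0.05 in edgeR, against 3.4% of all genes. The hypoxia-responsive list of 19 had a median of 0.30 and every estimate above 0, with 0 at an unadjusted p below 0.05 in edgeR. Its pool medians were 0.29, 0.24 and 0.75 at 24 h and 0.25, 0.34 and -0.38 at 12 h, so the pools of the 2 times overlapped. Heat shock chaperones, with a median of 0.23, had pool medians of 0.00, 0.04 and 0.73 at 24 h, the last in the pool with the library that stood apart. Medians of the difference lay between -0.16 and 0.20 for the lists of ribosome biogenesis, mitochondrial ribosomal proteins, respiratory chain, glycolysis, tricarboxylic acid cycle, NRF2 targets, unfolded protein response, ATF4 response, proteasome, lysosome, immediate early, YAP/TAZ, SRF, NF-kB, epithelial, mesenchymal, collagen, integrin, amino acid transporter, MHC class I, membrane repair, BCL2 and p53 target genes.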

How the data were processed

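Cytosolic RNA of PC-3 cells was sequenced in 18 libraries, and the 12 libraries of 24 h and 12 h were analysed here. The authors deposited 1 table of read counts per gene for 28395 gene IDs. Per the submitters' processing notes, STAR, DESeq2 and the build GRCh38.p13 were used; for the counter, its strand setting and the annotation, the sources used here give nothing. The authors' deposited tables of comparisons were not used. Symbols came from RefSeq names (27745 IDs matched).

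Groups and pools came from the labels. Counts were tested with edgeR 4.0.16 in R 4.3.3 (quasi-likelihood F test, robust, TMM factors, genes filtered by filterByExpr at 10 counts and a total of 15), with the 6 pools as blocks and a shear effect for each time, which leaves 4 residual degrees of freedom. The contrast was the shear effect at 24 h minus that at 12 h, adjusted by Benjamini-Hochberg over 14759 genes at 0.05. The labels state that the sheared and static libraries of a number share a pool within a time. Deviations from group means correlated within pools at 24 h (0.401 to 0.537, against -0.315 to -0.0963 between pools). At 12 h they did not set pools apart (0.28, -0.178 and 0.202 within pools, against -0.418 to 0.276 between pools), so there the block rests on the labels. Whether pools are separate passages is not stated, so p-values measure only the spread between these pools. An exact permutation test of 3 pools against 3 cannot give a p below 0.1.

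Depth was 16400487 to 21976621 counts per library. No 2 replicates agreed within counting noise, so none was merged. On simulated counts with the real means and library sizes (14759 genes), the test of the difference recovered 8.96%, 50.7% and 89.4% of genes changed 1.5-, 2- and 4-fold. Of 106 calls, 7 were false. The simulation used the fitted spread, gave no other gene a shear effect and left genes with few counts unchanged, so these shares need not hold for the real data. There, 4 of 38 G2/M genes were called, at a median log2 difference of 1.08.

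Alternatives were DESeq2 size factors, library totals, no filter, no block, all 18 libraries, DESeq2 1.42.0 and each pool left out in turn. The members of the lists and the named genes were chosen with earlier results of these data known. Named were, for each pattern, up to 5 genes with the largest difference past the threshold, at least 1 log2 CPM on average and pools that did not overlap, up to 4 genes of a list past the threshold, and a set of genes named in any case; genes singled out after their values were seen are marked as such.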

Additional observations from a re-analysis of the deposited data

Results flagged for a closer look

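The shear effect differed between 24 h and 12 h, by the test of the difference itself in edgeR, for 12 genes. It was higher at 24 h on the log2 scale by 2.08 for KRT4, 1.67 for SKA1, 1.56 for CDK1, 1.42 for FAM72A, 1.38 for UBE2C, 1.33 for ASPM and for NUF2, 1.27 for FAM72B, 1.24 for CDCA8 and 1.18 for KIF14. For MUC2 the difference was -1.90 and for TRIM29 -1.18. In each of the 12 no pool of 24 h overlapped a pool of 12 h, against 10.9% of all genes tested. This describes the libraries that gave the calls and is no separate support for them. With 3 libraries in a group, no gene was tested for a single library far from the others.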

How the results depend on the processing

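The pools are the pairing of this design, and without the replicate block no gene passed the threshold of the difference (0 higher and 0 lower, against 10 and 2 with it; 283 higher and 102 lower at an unadjusted p below 0.05 in edgeR), so every pattern and the G2/M list stood at 0. The single times then gave 245 higher and 120 lower at 24 h and 22 higher and 36 lower at 12 h. All 12 called genes kept their sign in every alternative, and all 12 stayed called without the filter, with all 18 libraries and in DESeq2, 11 with DESeq2 size factors, 8 with library totals and 7 without 24 h replicate 1. They numbered 12 without 24 h replicate 2 or 3, 0 without 12 h replicate 1 or 2 and 1 (MUC2) without 12 h replicate 3. The cause of these changes was not tested.

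Without the filter on low counts the difference gave 147 higher and 29 lower, with 23 growing, 116 late, 9 faded increases, 2 reversals to a decrease and 1 to an increase, 30 G2/M genes higher and 6 interferon-stimulated genes lower. The single times gave 1067 lower at 24 h and 767 higher and 618 lower at 12 h. With all 18 libraries it gave 89 higher and 12 lower, with 22 growing, 64 late and 5 faded increases, 23 G2/M genes and 2 interferon-stimulated genes; 24 h gave 1225 lower and 12 h 956 higher and 691 lower. DESeq2 gave 91 higher and 12 lower, with 10 growing, 77 late and 6 faded increases, 25 G2/M genes and 2 interferon-stimulated genes, and 661 higher at 12 h. With library totals 24 h gave 535 higher and 1340 lower, 12 h gave 188 higher and 635 lower, 1 gene grew and 1 interferon-stimulated gene was lower.

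With each pool left out in turn, the difference gave 0 to 41 higher and 0 to 13 lower, 24 h gave 572 to 985 higher and 368 to 731 lower, and 12 h gave 17 to 1029 higher and 26 to 831 lower. Growing increases ran between 0 and 8, late ones between 0 and 34, faded ones between 0 and 3, and reversals to a decrease or to an increase each between 0 and 1. G2/M genes ran between 0 and 18 and interferon-stimulated genes between 0 and 6. Over the named genes, 591 of the alternative values kept their side of the threshold, 108 passed it and 57 no longer did, and 0 reversed. Depth limits KRT4, FRK, PADI3 and SLC7A8, which had few counts.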
